A study of Mus musculus with 4 samples.

Results

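Foxo1 and Foxo3, genes that they control, and genes of the insulin and fasting response were followed in kidney RNA of mice with beta-thalassemia. The set has 10 members: 8430408G22Rik (now Depp1), Foxo1, Foxo3a (now Foxo3), Irs1, Irs2, Igfbp1, Pdk4, G6pc, Fbp1 and Klf15. They were chosen by function from gene names, with the measured Th3 over control ratios of these arrays already known, so their ratios are given as a description with no test. Probes were found by gene name or synonym: 9 of the 10 members had 13 probes, all of them bright enough to be kept, and no probe of Irs2 was matched. These 9 are among 17628 genes tested. The 4 control and 4 mutant samples were total RNA from kidney, hybridised as 1 Th3 and 1 control sample on each of 4 two-colour oligonucleotide arrays. Th3 is the mouse model in which both adult beta-globin genes, beta-major and beta-minor, are deleted, which gives an anaemia, and the other strain is labelled control. On arrays 1 and 2 the Th3 RNA was labelled with the dye Cy5, and on arrays 3 and 4 it was labelled with Cy3. Age, sex, feeding state, the number of deleted chromosomes and whether each sample came from its own animal are not given in the sources used here. The spread between samples may therefore be technical, and the p-values measure only that spread.

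FOXO proteins are transcription factors held in the cytoplasm when insulin signals through its receptor, the adapters Irs1 and Irs2, and the kinase Akt. When insulin is low, as in fasting, they enter the nucleus and raise genes for glucose production, fuel switching, stress resistance and autophagy. Kidney proximal tubule makes glucose from glutamine, lactate and glycerol, and so shares with liver the enzymes encoded by G6pc and Fbp1. FOXO proteins bind a short core written GTAAACA or GTAAATA, and the insulin response sequence of several targets is built on CAAAACA or CAAAATA.

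The 250 bases before the start of each member in the RefSeq promoter table of build GRCm38.p6 were searched for these 4 motifs on both strands. All 10 members had 1 promoter there, and 5 of them, Depp1, Igfbp1, G6pc, Irs1 and Irs2, held at least 1 match. Of 32851 mouse promoters of the same length, 14.2% held at least 1 match to any of the motifs, and 1.80% held 2 or more. By motif, 3.17% held GTAAACA, 2.73% GTAAATA, 5.56% CAAAACA and 3.95% CAAAATA. The members were chosen in part because they are known FOXO targets, so this share is a description. Promoters are shown for Depp1, Igfbp1 and G6pc, which had the highest mean ratios among the members, and for Irs1, which had as many matches as Depp1 and a smaller ratio. Each runs 5′ to 3′ on the gene's own strand and ends at the base before the start, with matches on either strand in capitals. The stretches are chr6:116650434-116650683 for Depp1 and chr11:7197537-7197786 for Igfbp1, both on the plus strand. They are chr11:101367466-101367715 for G6pc, on the plus strand, and chr1:82291440-82291689 for Irs1, on the minus strand.
Depp1: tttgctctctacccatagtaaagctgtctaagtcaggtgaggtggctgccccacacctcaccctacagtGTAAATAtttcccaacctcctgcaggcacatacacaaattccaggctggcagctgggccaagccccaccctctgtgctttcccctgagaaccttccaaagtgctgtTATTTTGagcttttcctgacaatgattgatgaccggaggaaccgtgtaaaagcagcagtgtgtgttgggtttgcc
Igfbp1: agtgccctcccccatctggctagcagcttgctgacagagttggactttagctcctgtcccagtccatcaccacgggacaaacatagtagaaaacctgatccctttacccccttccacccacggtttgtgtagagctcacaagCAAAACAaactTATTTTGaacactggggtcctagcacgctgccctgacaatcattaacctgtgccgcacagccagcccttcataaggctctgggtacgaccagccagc
G6pc: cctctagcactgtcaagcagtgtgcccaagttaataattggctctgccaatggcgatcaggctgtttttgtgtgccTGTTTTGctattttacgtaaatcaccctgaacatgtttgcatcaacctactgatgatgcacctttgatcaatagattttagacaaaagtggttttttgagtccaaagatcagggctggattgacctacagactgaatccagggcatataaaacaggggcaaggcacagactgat
Irs1: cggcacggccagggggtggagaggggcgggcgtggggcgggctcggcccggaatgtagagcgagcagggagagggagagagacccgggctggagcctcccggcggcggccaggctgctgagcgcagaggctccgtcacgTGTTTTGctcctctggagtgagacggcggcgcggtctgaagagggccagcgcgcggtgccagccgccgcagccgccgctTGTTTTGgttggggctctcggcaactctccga

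In the Depp1 promoter, GTAAATA lay 181 to 175 bases before the start and CAAAATA on the opposite strand 75 to 69 bases before it. The Igfbp1 matches were a close pair on opposite strands, CAAAACA at 108 to 102 and CAAAATA at 97 to 91 bases before the start. G6pc held 1 match, CAAAACA on the opposite strand, 174 to 168 bases before its start. Irs1 held CAAAACA on the opposite strand at 111 to 105 and at 32 to 26 bases, and Irs2 held 1 such match at 37 to 31 bases. No match was found in the windows of Foxo1, Foxo3, Pdk4, Klf15 and Fbp1, which says only that these letters are not there. A match is not evidence of binding, which these arrays do not measure.

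**Figure D1:**
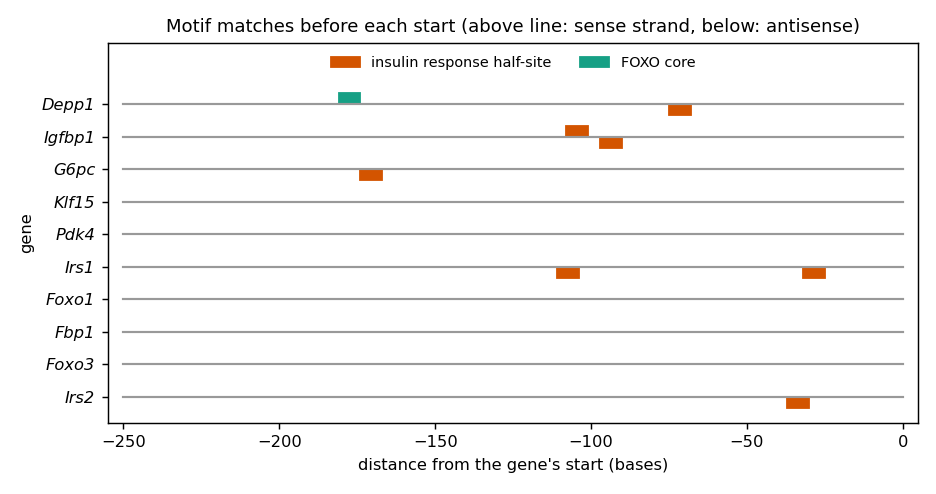
Positions of motif matches in the 250 bases before the start of each of the 10 members; the x axis is the distance from the start in bases. Boxes above a line are on the gene's strand and boxes below it on the opposite strand; Depp1, Igfbp1 and Irs1 have 2 matches each, G6pc and Irs2 have 1, and the remaining ones have none.

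The share of probes well above background ran from 61.8% to 72.2% over the channels, and the precision of each value is limited by having 4 arrays. As a check of the labels, the adult beta-globin probe named Hbb-bt stood at 8.48% of control (log2 ratio -3.56 ± 0.48, SD, n = 4), lower on 4 of 4 arrays. Of the 17628 genes, 21.5% passed the test of Th3 against control (limma with a dye term, Benjamini-Hochberg adjusted p under 0.05), 10.9% as higher and 10.6% as lower. With median centring in place of loess 1938 were higher and 1144 lower, against 1927 and 1866. Genes past the test are called below. Proximal tubule markers were bright, with summed signals of 316880 or more in every sample, and some marker groups differed between the strains. Of 10 liver hepatocyte markers 9 were called higher, of 10 proximal tubule markers 7 were called lower and of 8 macrophage markers 7 were called lower. No podocyte marker of 6 was called. Of 10 endothelial markers 1 was called, higher, and of 11 adipocyte markers 2 were called higher and 2 lower. Of 10 markers of the loop of Henle, distal tubule and collecting duct, 2 were higher and 1 lower, and of 7 smooth muscle and pericyte markers 2 were higher and 1 lower. The adrenal markers Cyp11a1, Cyp11b1 and Cyp21a1 were not among the genes tested, and none of the other adrenal markers was called.

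Depp1 stood apart from the other members: it was 3.47-fold higher in Th3 kidney and higher on every array. Depp1 encodes a small protein first found in decidua, which FOXO factors induce and which has been linked to autophagy. Its probe lies at chr6:116618165-116618224 of mouse build mm8, plus strand. Signals below are brightness after normalization, in arbitrary units, and can be compared between samples for 1 probe only. Depp1 signal in the Th3 samples of arrays 1 to 4 was 1111, 3113, 3109 and 3349. In the control samples of arrays 1 to 4 it was 384, 785, 896 and 917. The groups did not overlap, and the array 1 samples were the lowest on both sides. The share of all genes whose groups do not overlap was not counted. The log2 ratios of arrays 1 to 4 were 1.53, 1.99, 1.79 and 1.87, a mean of 1.80 ± 0.19 (SD, n = 4), so the low signals of array 1 came with a ratio close to the others. Depp1 lay at the 99.96 percentile of log2 ratios over all genes tested. In whole kidney RNA a change in the number of cells that express a gene and a change in RNA per cell cannot be told apart. Endothelial markers, summed, ranged from 32751 to 41492 in Th3 and from 31981 to 36556 in control samples, and their median log2 ratio was 0.00. Among other marker groups the median was 0.69 for liver hepatocyte, 0.26 for adipocyte, -0.29 for proximal tubule and -0.50 for macrophage markers. The part of these cell types in the Depp1 ratio was not tested.

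**Figure D2:**
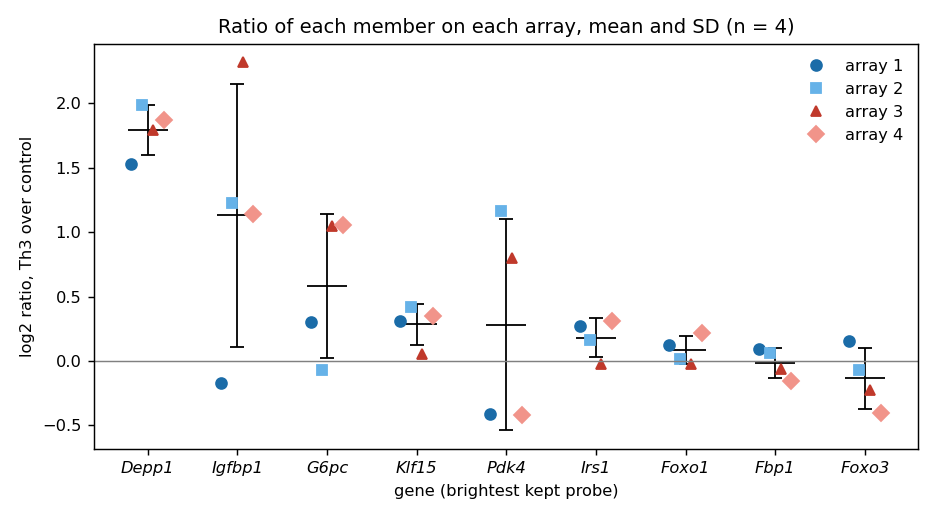
Log2 ratio of Th3 over control for the brightest probe of each of the 9 measured members on arrays 1 to 4, with the mean (bar) and SD (whiskers, n = 4). All 4 arrays lie between 1.53 and 1.99 for Depp1, while those of Igfbp1 run from -0.17 to 2.32 and those of Pdk4 from -0.42 to 1.16.

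Igfbp1 was 2.19-fold higher on average, but with a spread that Depp1 did not have. Igfbp1 encodes a secreted protein that binds insulin-like growth factors, is repressed by insulin through FOXO1, and is also raised by hypoxia and glucocorticoids. Its probe lies at chr11:7102442-7102501 of mm8, plus strand. Igfbp1 signal in the Th3 samples of arrays 1 to 4 was 4910, 13449, 14211 and 7163. In the control samples it was 5533, 5736, 2848 and 3244. The groups overlapped because the Th3 sample of array 1 lay below 2 control samples, and the others Th3 samples lay above every control. The log2 ratio was -0.17, 1.23, 2.32 and 1.14 on arrays 1 to 4, with a mean of 1.13 ± 1.02 (SD, n = 4), higher on 3 of 4 arrays. Liver markers moved the same way: their median log2 ratio was 0.69, and their summed signal was 6631 to 9640 in Th3 samples and 2835 to 5266 in control samples, without overlap. Of their defining genes, Apoa1 had a log2 ratio of 0.41 ± 0.24 (called) and Alb one of 0.59 ± 0.54 (not called), and both were measured on all 4 arrays. On arrays 1 to 4 the log2 ratio was 1.14, 0.01, 0.27 and 0.95 for Alb and 0.67, 0.09, 0.47 and 0.43 for Apoa1. The part of liver-type RNA in the mean ratio of Igfbp1 was not tested.

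Pdk4 showed no common direction. It encodes the kinase that switches off pyruvate dehydrogenase in fasting, which spares glucose for the brain and red cells. Pdk4 signal in the Th3 samples of arrays 1 to 4 was 835, 2934, 3096 and 2083. In the control samples it was 1115, 1311, 1782 and 2787. The Th3 sample was the brighter on arrays 2 and 3 and the dimmer on arrays 1 and 4. Its log2 ratios were -0.42, 1.16, 0.80 and -0.42, a mean of 0.28 ± 0.82 (SD, n = 4) that was not called. Without array 2 the fitted log2 ratio, which weighs the 2 dye orientations equally, was -0.11. Without array 3 it was -0.02, so the sign of the fitted ratio changed when either of those arrays was left out. Pdk4 is also expressed in fat. Among the adipocyte markers, Adipoq had log2 ratios of 1.29, 1.88, 1.31 and -0.47 on arrays 1 to 4 and Ucp1 of -4.02, -2.01, -3.78 and -3.80. Their summed signal was 99759 to 125848 in Th3 and 59074 to 162450 in control samples, and its part in the Pdk4 values was not tested. The Pdk4 probe lies at chr6:5433441-5433500 of mm8, minus strand.

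Of the last enzymes of gluconeogenesis, G6pc had the higher mean ratio, and the gap to Fbp1 lay mainly on arrays 3 and 4. On arrays 1 and 2 the mean log2 ratio was 0.12 for G6pc and 0.08 for Fbp1. On arrays 3 and 4 the means were 1.05 and -0.11. G6pc encodes the catalytic subunit of glucose-6-phosphatase, which releases free glucose, and Fbp1 encodes a bisphosphatase that acts upstream of it. G6pc signal in the Th3 samples of arrays 1 to 4 was 11597, 22990, 24583 and 28398. In the control samples it was 9395, 24092, 11919 and 13659. The groups overlapped, because the array 1 pair was low on both sides and the control of array 2 was brighter than the Th3 samples of arrays 1 and 2, though dimmer than those of arrays 3 and 4. The log2 ratio of G6pc was 0.30, -0.07, 1.04 and 1.06 on arrays 1 to 4, a mean of 0.58 ± 0.56 (SD, n = 4), or 1.50-fold. Fbp1 was bright and even in every sample, from 103522 to 113335 in Th3 and from 97005 to 120531 in control kidneys. Its mean log2 ratio was -0.02 ± 0.12 (n = 4), with 2 arrays on either side of 0. Both genes are expressed in the proximal tubule, whose markers, summed, were 316880 to 361912 in Th3 and 373668 to 424561 in control samples, without overlap and in the opposite direction to G6pc. The defining markers Slc34a1 and Slc5a2 had log2 ratios of -0.44 ± 0.26 and -0.21 ± 0.12. The liver markers given with Igfbp1 are higher in the same samples, and their part in the G6pc values was not tested. The probes lie at chr11:101193723-101193782 (G6pc, plus strand) and chr13:62874438-62874497 (Fbp1, minus strand) of mm8.

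**Figure D3:**
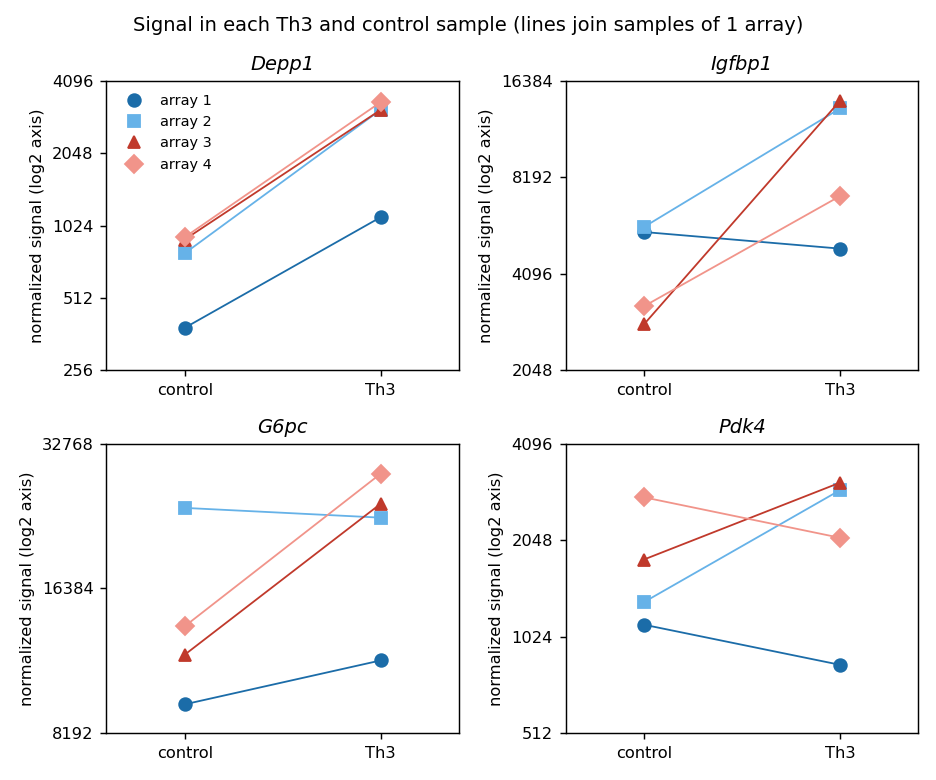
Normalized signal of Depp1, Igfbp1, G6pc and Pdk4 in each control and Th3 sample, on a log2 axis in arbitrary units; lines join the 2 samples of an array. Of the genes shown, only Depp1 has every Th3 sample (1111 to 3349) above every control (384 to 917), and the share over all genes was not counted. The array 1 samples are low on both sides for Depp1, G6pc and Pdk4.

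Foxo1 itself differed little, while the ratio of Foxo3 depended on the processing. Over the 14 settings the fitted log2 ratio of Foxo3 ran from -0.35 to -0.03, and it was called under 0 of them. The brighter Foxo1 probe, at chr3:52434190-52434249 of mm8, had signals of 3044 to 3283 in Th3 and of 2820 to 3322 in control samples. Its log2 ratio was 0.08 ± 0.11 and that of the other probe, at chr3:52437296-52437355, was 0.14 ± 0.18 (n = 4). Foxo3, labelled Foxo3a on the array, was dim, with signals of 110 to 142 in Th3 and of 123 to 146 in control samples for its brighter probe at chr10:41869156-41869215. That probe had log2 ratios of 0.15, -0.07, -0.23 and -0.40 on arrays 1 to 4, a mean of -0.14 ± 0.24. Its other probe, at chr10:41874361-41874420, had the opposite sign, 0.08 ± 0.06, so the probes of Foxo3 give no common direction. FOXO activity is set mainly by phosphorylation and location in the cell, which RNA levels do not report.

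Klf15, a transcription factor induced by fasting and glucocorticoids that drives amino acid breakdown for gluconeogenesis, was higher on 4 of 4 arrays by a small amount. Klf15 signal was 4784, 6598, 5943 and 5942 in the Th3 samples of arrays 1 to 4 and 3858, 4942, 5718 and 4663 in the control samples. The Th3 sample was the brighter on each array although the groups overlapped. Its log2 ratios were 0.31, 0.42, 0.06 and 0.35, a mean of 0.28 ± 0.16 (n = 4), at chr6:90440517-90440576 of mm8. The dimmer probe, at chr6:90439701-90439760, had 0.16 ± 0.16, with -0.04 on array 1. Irs1, the adapter that carries the insulin signal from its receptor, had signals of 4662 to 5900 in Th3 and of 4249 to 4878 in control samples at chr1:82112141-82112200. Its mean log2 ratio was 0.18 ± 0.15, and that of a much dimmer probe at chr1:82116013-82116072 was 0.05 ± 0.15.

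By the fit that was run on all genes, 4 of the 9 measured members (Depp1, Igfbp1, G6pc and Klf15) were called higher, 0 lower (0 also at an unadjusted p under 0.05) and 5 were not called, beside 10.9% called higher and 10.6% called lower over all genes. As the members were chosen with this contrast known, nothing is read from that count or from the calls of single members under any setting. Their median log2 ratio was 0.28, beside 0.00 over all genes. Depp1 was called under 14 of 14 settings of the processing, G6pc under 12, and Igfbp1 and Klf15 under 9 each. The call of Igfbp1 ended without array 3, with a fitted log2 ratio of 0.84, and that of Klf15 ended without array 2 (0.26) and without array 4 (0.21). Pdk4 was called only without array 1 (0.68), and Irs1 only without array 3 (0.27). In the authors' deposited table, the signed fold was 3.73 for Depp1, 2.21 for Igfbp1, 1.50 for G6pc, 1.23 for Pdk4 and 1.22 for Klf15. The authors' deposited table gave -1.16 and 1.14 for the probes of Foxo3, where a minus sign means lower in Th3.

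Igfbp1, Pdk4 and G6pc varied more between arrays than nearly all other genes. The SD of the log2 ratio over the 4 arrays was 1.02 for Igfbp1, 0.82 for Pdk4 and 0.56 for G6pc, at the 99.8, 99.7 and 98.7 percentiles of all genes, whose median SD was 0.14. Depp1, with 0.19, lay at the 71.2 percentile. The picture changed when each side was taken alone. Among Th3 samples the SD of the log2 signal was 0.87 for Pdk4, 0.76 for Depp1, 0.74 for Igfbp1 and 0.57 for G6pc, all at or above the 99.6 percentile, where the median gene had 0.09. Among control samples the SDs were 0.58, 0.59, 0.52 and 0.58 in that order, all at or above the 98.9 percentile, where the median gene had 0.10. Much of this rested on array 1 among Th3 samples, and among control samples for Depp1 only. Without array 1, a setting added after the data were seen, the SD among Th3 samples was 0.06 for Depp1, 0.16 for G6pc, 0.31 for Pdk4 and 0.55 for Igfbp1, at the 35.4, 85.9, 98.5 and 99.8 percentiles. Among control samples that of Depp1 was 0.12 without array 1, at the 63.0 percentile. The control SDs of G6pc, Pdk4 and Igfbp1 without array 1 were 0.54, 0.55 and 0.54, at the 99.0, 99.1 and 99.0 percentiles. The control SD of G6pc was 0.27 without array 2, at the 94.5 percentile, and that of Pdk4 was 0.34 without array 4, at the 95.9 percentile. The wide spread of Depp1 on both sides was thus that of the array 1 samples, which were low together. The SD of the ratio of Igfbp1 was 0.66 without array 1, at the 99.4 percentile, and that of Depp1 was 0.10, at the 32.2 percentile. For Foxo1 and Fbp1 the SD of the log2 signal was 0.06 and 0.05 among Th3 samples and 0.11 and 0.13 among control samples. This spread comes from the same arrays and is given as a description. The samples of an array share a hybridisation, whose part in this was not tested.

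**Figure D4:**
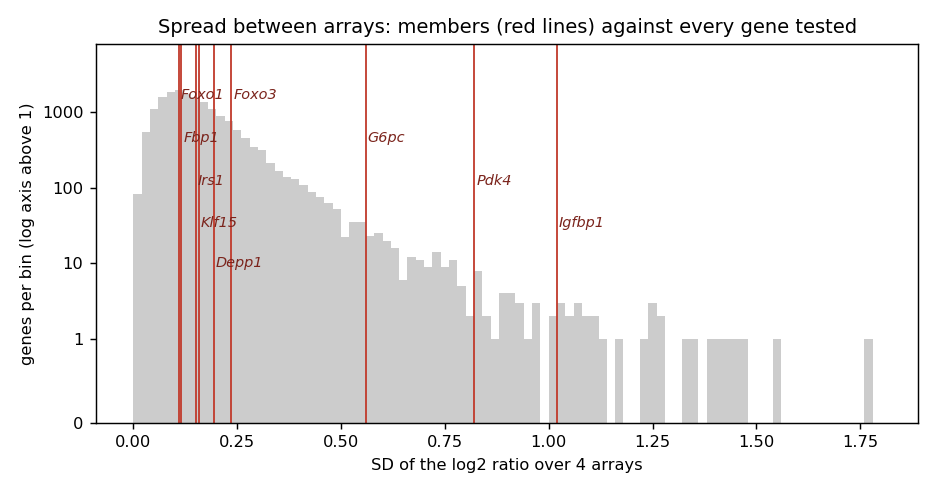
Histogram of the SD of the log2 ratio over 4 arrays for all genes tested (grey; the y axis is logarithmic above 1), with a red line at each of the 9 measured members. Igfbp1 (1.02), Pdk4 (0.82) and G6pc (0.56) lie in the right tail, and the other members lie between 0.11 and 0.24.

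The difference between arrays 1 and 2 and arrays 3 and 4 comes from the same ratios, which were known when the members were chosen. The members' values in it are therefore a description. This difference is the dye term of the fit, so dye orientation and the kidneys on each pair of arrays cannot be told apart in it. Over all genes, 0.993% passed this test. Of the 9 members 1 passed, G6pc, whose mean log2 ratio was 0.12 for arrays 1 and 2, against 1.05 for the other pair, a difference of -0.93 (limma, adjusted p = 0.0497). That call is at the threshold: G6pc passed under 4 of 12 settings, and its adjusted p over the alternatives ran from 0.00246 to 0.127. It did not pass without array 3 (0.125) or without array 4 (0.121). Igfbp1 had means of 0.53 and 1.73 on the pairs, a difference of -1.20 that did not pass (adjusted p = 0.298, and 0.000685 without array 2). For Depp1 the pairs had 1.76 and 1.83 (adjusted p = 0.862), and for Pdk4 0.37 and 0.19 (adjusted p = 0.899). For Foxo3 they had 0.04 and -0.31 (adjusted p = 0.231).

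Other genes of the same pathways were taken from 9 lists, 191 measured genes counted once, of which 45 rose, 21 fell and 125 did not pass. That is 34.6% called, beside 21.5% over all genes, and the lists were chosen with earlier results known. By list, in the order below, the shares called were 11.5%, 30.6%, 43.5%, 30.6%, 54.5%, 18.2%, 40.9%, 54.5% and 50%. With median centring 48 rose and 10 fell, and the negative medians given below for 3 lists (gluconeogenesis, insulin-like growth factors and the pyruvate dehydrogenase switch) became 0.02, 0.04 and 0.03. Adjusted p-values of these genes are from the limma fit, adjusted over all genes tested. Of the genes named below, Igf1, Pcx, Sesn3 and Srebf1 passed under 12 of 13 alternatives and not with the array pairs as a random block. Of 26 genes, regulators of FOXO proteins together with Foxo4 and Foxo6, 2 rose and 1 fell, 23 did not pass, and the median log2 ratio was 0.00. Foxo4 had 0.05 ± 0.12 and Foxo6 -0.17 ± 0.30, and neither passed. Sgk1, an Akt-like kinase that phosphorylates FOXO3 and is induced by steroids, rose by 0.67 ± 0.47 (n = 4, adjusted p = 0.0266). Crebbp, an acetyltransferase that acts on FOXO, rose by 0.24 ± 0.10 (adjusted p = 0.0370), though its other probes had 0.06 each, and the mitochondrial deacetylase Sirt3 fell by 0.26 ± 0.14 (adjusted p = 0.0352). Sgk1 passed under 9 of 13 alternatives, with adjusted p up to 0.0840 without array 4. Crebbp passed under 5 of the 13, and not without array 1, 2 or 4, and Sirt3 under 6, and not without array 1 or 3. Without array 4 no gene of this list rose and 3 fell. Without array 1, 1 rose and 0 fell, without array 2, 2 rose and 2 fell, and without array 3, 3 rose and 0 fell. With the array pairs as a random block, and with Agilent's processed signals, none of the list passed in either direction. Without the dye term, and with the log2 ratios of the authors' deposited table, 1 rose and 0 fell, with median centring 3 rose and 0 fell, and with no filter on dim probes 1 rose and 1 fell.

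Among 36 other FOXO target genes, 9 rose and 2 fell, 25 did not pass, and the median was 0.08. Bnip3, a mitochondrial autophagy receptor that hypoxia also induces, rose 2.06-fold (log2 1.05 ± 0.20, n = 4, adjusted p = 0.000445). Ddit4, an inhibitor of mTOR signalling raised by hypoxia and glucocorticoids, rose 1.95-fold (log2 0.96 ± 0.21, adjusted p = 0.00189). Both passed under 13 of 13 alternatives. The decreases were small. Sesn3, a sestrin that restrains mTOR, fell by 0.33 ± 0.18 (adjusted p = 0.0103), with -0.30 ± 0.08 and -0.02 ± 0.08 on its other probes. The mitochondrial superoxide dismutase Sod2 fell by 0.24 ± 0.18 (adjusted p = 0.0238). Sod2 passed under 6 of 13 alternatives and not without array 1, 2 or 3. The other increases were those of Apoc3, Nfil3, Cited2, Gadd45b, Cdkn1b, Sesn1 and Trim63, between 0.27 and 0.90. Apoc3 is also a liver gene. With the array pairs as a random block 4 of the list rose and 0 fell. Without the dye term, with median centring and with Agilent's processed signals 1 fell.

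Gluconeogenesis and renal glutamine use had 23 measured genes, and 6 of them rose, 4 fell and 13 did not pass. Their median was -0.03. Gpt, alanine aminotransferase, rose by 0.44 ± 0.22 (n = 4, adjusted p = 0.00812), and Pcx, pyruvate carboxylase, rose by 0.42 ± 0.24 (adjusted p = 0.00538). Gpd1, which links glycerol to gluconeogenesis, fell by 0.65 ± 0.08 (adjusted p = 0.00153). Its other probe had -0.24 ± 0.19. The glutamine transporter Slc38a3 fell by 0.43 ± 0.30 (adjusted p = 0.0392), but passed under 6 of 13 alternatives and not without array 1 or 3. Pck1, phosphoenolpyruvate carboxykinase of gluconeogenesis, was listed but not matched to a probe. Without array 1, 5 rose and 2 fell, and with the array pairs as a random block 1 rose and 2 fell. Without the dye term, with median centring and with Agilent's processed signals 2 fell as well.

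Of 36 genes of insulin receptor signalling, 6 rose, 5 fell and 25 did not pass, and the median was 0.02. That is 30.6% called, beside 21.5% over all genes, of which 10.9% were higher and 10.6% lower. Srebf1, a lipogenic transcription factor that insulin induces, rose by 0.55 ± 0.35 (n = 4, adjusted p = 0.0122). Enpp1, an inhibitor of the insulin receptor, rose by 0.36 ± 0.15 on its brightest probe and had -0.18 ± 0.18 on its other. Mtor, the growth kinase downstream of insulin, fell by 0.71 ± 0.10 (adjusted p = 0.00160), with -0.07 ± 0.30 on its other probe, and its partner Rptor fell by 0.35 ± 0.13, with 0.02 ± 0.19 on the other. The probes of Enpp1, Mtor and Rptor thus disagreed, and with the mean of a gene's probes neither Enpp1 (adjusted p = 0.254, the highest over its alternatives, the lowest being 0.00534) nor Rptor (0.0572, against 0.00910) passed. Without array 1, 4 of the list rose and 2 fell. Without array 3, 4 rose and 3 fell. With the array pairs as a random block 2 rose and 2 fell, with median centring 7 rose and 3 fell, and with the mean of a gene's probes 3 rose and 4 fell.

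Of the 11 measured genes of insulin-like growth factors, their receptors and binding proteins, 3 rose, 3 fell and 5 did not pass, with a median of -0.03. Igfbp2, a binding protein that like Igfbp1 is held down by insulin, rose by 1.12 ± 0.70 (n = 4, adjusted p = 0.00657). Its log2 ratios on arrays 1 to 4 were 2.10, 1.08, 0.83 and 0.45, so it was highest on the array where Igfbp1 was lowest. Igfbp5 rose by 0.49 ± 0.23 (adjusted p = 0.0145), with 0.40 ± 0.35 on its other probe. Igf1 fell by 0.35 ± 0.21 (adjusted p = 0.00879), with -0.08 ± 0.06 and -0.30 ± 0.27 on its other probes. Igf2r, a receptor that clears Igf2, fell by 0.23 ± 0.22 (adjusted p = 0.0266). Igf2r passed under 6 of 13 alternatives and not without array 1, 2 or 3, and Igfbp5 did not pass without array 3 (adjusted p = 0.0591, the highest over its alternatives, the lowest being 0.000145). Without array 1, without array 3, without the dye term and with median centring, 1 gene of the list fell, and with the array pairs as a random block 3 rose and 0 fell. In the switch that Pdk4 belongs to, 1 of 11 genes rose and 1 fell, 9 did not pass, and the median was -0.05. Pdk1, the kinase of pyruvate dehydrogenase that hypoxia induces, rose by 0.67 ± 0.20 (adjusted p = 0.00451). Pdha1, a subunit of the enzyme that Pdk1 inhibits, fell by 0.44 ± 0.09 (adjusted p = 0.00558). The other probe had 1.15 ± 0.28 for Pdk1 and -0.19 ± 0.16 for Pdha1. Pdk1 and Pdha1 each passed under 13 of 13 alternatives, while Pdk4 was not called.

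Fasting genes driven by PPAR-alpha, the receptor that turns on fatty acid oxidation, were mixed: of 22, 5 rose, 4 fell and 13 did not pass, with a median of 0.09. The fatty acid hydroxylase Cyp4a14 rose by 0.95 ± 0.49 (n = 4, adjusted p = 0.00129) and the thioesterase Acot1 rose by 0.76 ± 0.47 (adjusted p = 0.0187). The thiolase Acaa1b fell by 0.31 ± 0.11 (adjusted p = 0.0163). The mitochondrial carrier Ucp2 fell by 0.33 ± 0.11 (adjusted p = 0.0126), with -0.03 ± 0.08 on its other probe. With the mean of a gene's probes Ucp2 did not pass (limma, adjusted p = 0.0519). Cpt1a, which carries fatty acids into mitochondria, and Angptl4, an inhibitor of lipoprotein lipase, did not pass, with log2 ratios of 0.10 ± 0.34 and 0.14 ± 0.43, and were named after their values were seen. Without array 1, 8 genes rose and 0 fell, and without array 4, 6 rose and 2 fell. With the array pairs as a random block 1 rose and 1 fell, and neither Acot1 nor Acaa1b passed. With median centring 1 fell, and 2 fell without the dye term, with Agilent's processed signals or with the mean of a gene's probes. Acot1 did not pass without array 3 (adjusted p = 0.0674, the highest over its alternatives, the lowest being 9.7e-06). Without array 1 neither Acaa1b (0.0764, in a range of 0.00934 to 0.125) nor Ucp2 (0.0526, in a range of 0.00682 to 0.0526) passed.

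The glucocorticoid and cAMP response, which fasting also engages, had 12 of 22 genes higher, 0 lower (1 at an unadjusted p under 0.05) and 10 not passed, with a median of 0.46. Cebpd, a transcription factor of the acute and hormonal response, rose by 0.98 ± 0.46 (n = 4, adjusted p = 0.00721), and Ddit4 is given above. The other increases were those of Nr4a1, Dusp1, Lcn2, Sgk1, Errfi1, Hsd11b1, Cebpb, Fkbp5, Per1 and Tat, between 0.41 and 0.86. Several of these, Nr4a1, Dusp1 and Cebpb among them, are also immediate early genes, and Lcn2 is also a marker of tubular injury. Fkbp5, a direct glucocorticoid receptor target, passed at the threshold (0.54 ± 0.96, limma, adjusted p = 0.0496), with 1.79 on array 1. Its ratio was -0.15 on array 4, which was not its lowest, so it had no common direction over the arrays. Tsc22d3, another direct target, had 0.12 ± 0.49 and did not pass, and the metallothioneins Mt1 and Mt2 had -0.17 ± 0.43 and -0.37 ± 0.74. Those 4 genes were singled out after their values were seen. Without array 2, 13 were higher and 2 lower. The median was 0.30 without array 1. The count higher was 7 without array 4, 8 without array 3, and 6 with the array pairs as a random block. Of 14 genes of amino acid breakdown linked to Klf15, 6 rose, 1 fell and 7 did not pass, with a median of 0.08. Hpd, of tyrosine breakdown, rose by 0.58 ± 0.33 (adjusted p = 0.00567), and Gpt is given above. Bckdha, of the branched-chain ketoacid dehydrogenase, fell by 0.43 ± 0.12 (adjusted p = 0.00712) and had -0.44 ± 0.30 on its other probe. Without array 4, and without the dye term, 3 of them rose, and with the array pairs as a random block 2 did.

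**Figure D5:**
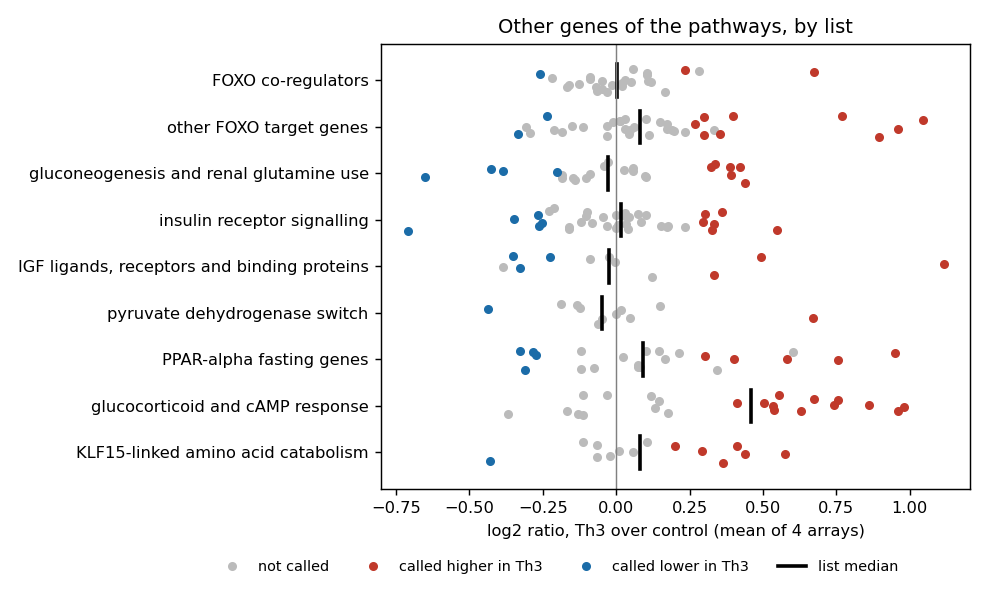
Mean log2 ratio of Th3 over control (x axis, 4 arrays) of each measured gene in the 9 lists, with genes called higher in red, called lower in blue, and others in grey; a black bar is the list's median. The glucocorticoid and cAMP response has a median of 0.46 (0.30 without array 1) with 12 of 22 genes called higher, and the medians of the remaining lists lie between -0.05 and 0.09.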

How the data were processed

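The scanner files hold spot and background intensity values from Agilent Feature Extraction, not normalized, and processed intensity values that were background-subtracted and dye-normalized, per the file headers. They also hold the log10 ratio of Cy5 over Cy3, used to check directions, and 0 or 1 flags for spots, per the file headers. The authors deposited a table with log2 ratios of Th3 over control per array, by a normalization not given in the sources used here. It also holds a score of the authors, the fold with a sign, and a deposited adjusted p-value whose test is not named and which is not printed here. The array annotation is on mm8.

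Signals were corrected with normexp (offset 50) and normalized by loess (span 0.3, 4 iterations) in R 4.3.3 with limma 3.58.1. Control and outlier spots were left out. Of 41174 probes, 26434 were kept: well above background on all 4 arrays in the Th3 or the control channel, with a value on at least 3 arrays. Names came from the RefSeq gene table of GRCm38.p6. A gene was represented by its brightest kept probe. Ratios were fitted with lmFit and eBayes on a Th3 term and a dye term, with 2 residual and 4.52 prior degrees of freedom, and p-values were adjusted by Benjamini-Hochberg over 17628 genes. A ± is the SD over arrays. Per-sample signals were further scaled with Aquantile. The arrays lay on 1 slide scanned once, which leaves no such batch to test. The script was tested on simulated data.

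The members and the lists were chosen with earlier results of these data known. Named were all members with every probe, and in each list the called genes of 1 sign on 4 arrays that rose or fell most, at most 2 each way. Other genes named were counted or singled out after their values were seen. Irs2 and Pck1 had no matched probe and are not analysed here.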

Additional observations from a re-analysis of the deposited data

Results flagged for a closer look

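Over the 37 member and named-gene ratios examined for a sample far from the others, 1 stood out by Dixon's test for 4 values (which chance passes in about 1 of 20 groups). It was Ucp2, whose ratio on array 2 lay apart from the others by 0.914 of the whole range. Its log2 ratio was -0.16 on array 2 and -0.38, -0.38 and -0.40 on arrays 1, 3 and 4. No member met this criterion.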

How the results depend on the processing

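The 4 called members kept their direction under all 13 alternatives. Of the values of listed named genes under the alternatives, 310 kept their call and 54 lost it. Depp1 ran from 1.68 to 1.95, Igfbp1 from 0.78 to 1.48, G6pc from 0.49 to 0.68 and Pdk4 from -0.11 to 0.68. Fbp1 ran from -0.04 to 0.08 and Foxo3 from -0.35 to -0.03. With Agilent's processed signals 2 members were called higher, and without the dye term, or with the array pairs as a random block, 1 was. Over all genes, 1102 rose and 888 fell without the dye term, 645 rose and 554 fell with the block, and 1144 fell with median centring. Of the listed genes 12 fell without the dye term, 17 rose and 7 fell with the block, and 10 fell with median centring. The difference between the pairs of arrays, with 175 calls, had 13 without background subtraction, 4 with processed signals, 17 with no filter and 12743 with median centring. With each array left out it had 0 to 500 calls: 319 without array 1, 500 without array 2, 0 without array 3 (limma, 3160 at an unadjusted p under 0.05) and 2 without array 4. Leaving out an array left 3 to 5 members called higher and 0 lower, and 32 to 43 listed genes higher and 9 to 22 lower, 9 without array 1. Such a fit takes the lone array of a dye orientation to vary like the others. The causes of these shifts were not tested. Each value is a ratio within 1 array, so the Th3 and control samples of an array are already paired in the fit. The probes of Foxo3 and the second Irs1 probe were the dimmest of the members, which limits their ratios.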
